A study of Mus musculus with 8 samples.

Results

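The core circadian clock genes are the 10 transcripts Clock, Arntl, Per1, Per2, Per3, Cry1, Cry2, Nr1d1, Nr1d2 and Dbp. They were taken by symbol from the GENCODE M21 mouse annotation out of 49585 gene identifiers, and each symbol matched 1 identifier. All 10 had a mean of at least 1 FPKM (fragments per kilobase of transcript, scaled to each library's mapped fragments) over the libraries, the level that 15061 genes reached and at which genes were tested. The libraries hold polyadenylated RNA from the dorsal horn of lumbar segments of the spinal cord of adult C57BL/6J mice. Of these mice 4 were wild type and 4 lacked miR-96 (knock-out below), with no treatment named in the labels for either group. The labels give neither the allele of the knock-out nor the sex of the mice. They give no time of day of tissue collection, and the clock genes are described here because their levels depend on it.

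The circadian clock is a feedback loop of transcription that runs in nearly every cell. CLOCK and BMAL1 (the product of Arntl) bind E-box elements as a pair and switch on the Per and Cry genes, whose proteins return to the nucleus and inhibit them. In a second loop the same pair drives Nr1d1 and Nr1d2, which encode the repressors REV-ERB alpha and beta, and these hold Arntl down through elements shared with the ROR activators. Dbp, an output of the loop, encodes an activator that binds D-box elements. In many mouse tissues Arntl peaks when Dbp, Nr1d1 and the Per genes are low, so that the levels of these genes together depend on the hour of collection, and Clock itself cycles weakly.

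The microRNA absent from the knock-out is shown first, because its pairing rule picks out 3 of the 10 genes. Its mature form in RefSeq (GRCm38.p6, chromosome 6, 30169506 to 30169528, minus strand) reads as below, with the seed, bases 2 to 8, in capitals.
miR-96-5p: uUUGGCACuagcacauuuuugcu
In the longest annotated 3′ untranslated region (UTR) of each member, on GRCm38, GTGCCAA (the complement of bases 2 to 8) or TGCCAAA (the complement of bases 2 to 7, followed by A) was found in Clock, Nr1d2 and Per2, with 2 matches each. The sites are given with 15 bases before and 3 after the match, which is in capitals.
Clock, first site: atagaaagagtatatTGCCAAAtgc
Clock, second site: aggtgtttaccccttTGCCAAAact
Nr1d2, first site: ttagactttttcatcTGCCAAAgcc
Nr1d2, second site: cctgttggcatgtttGTGCCAAgtc
Per2, first site: aaacctctttccagtGTGCCAAtgt
Per2, second site: acttaaacacaaaacTGCCAAAacc
They start at bases 253 and 6297 of the 6831-base UTR of Clock, at 267 and 1209 of the 2631 bases of Nr1d2 and at 329 and 1479 of the 1889 bases of Per2. All 6 lie on the minus strand, at chr5:76216440-76216446 and chr5:76210396-76210402 (Clock), chr14:18206412-18206418 and chr14:18205470-18205476 (Nr1d2), and chr1:91417536-91417542 and chr1:91416386-91416392 (Per2). The other 7 members held no match. Of 13058 tested genes with a UTR of at least 50 bases, 20.5% held 1 or more. That share was not matched for UTR length, which was 288 to 2224 bases in the 7 members without a match. A match is a description of letters, and binding was not measured.

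The clock's own elements were looked for on both strands of RefSeq promoter windows (GRCm38.p6, 250 bases before to 50 after a start site), which covered 9 of the 10 members in 13 windows. The E-box CACGTG stood in windows of Per1 and Cry1, a D-box (TTATGTAA or TTATGCAA) in windows of Per1 and Per3, and the core of the REV-ERB and ROR element (TAGGTCA or TGGGTCA) in a window of Arntl. Of the 32851 windows in that table, 7.15% held the E-box, 1.66% a D-box and 6.45% the REV-ERB and ROR core. Each is shown with its neighbouring bases because these are the letters through which the loop described above is known to work.
Per1, E-box: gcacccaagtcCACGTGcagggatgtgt
Cry1, E-box: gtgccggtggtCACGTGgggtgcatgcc
Per1, D-box: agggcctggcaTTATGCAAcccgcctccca
Per3, D-box at the first place: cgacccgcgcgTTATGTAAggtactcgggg
Per3, D-box at the second place: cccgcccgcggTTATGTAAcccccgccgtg
Arntl, REV-ERB and ROR core: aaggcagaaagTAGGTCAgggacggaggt
In the same order these stretches are chr11:69098772-69098799 (plus strand), chr10:85185098-85185125 (minus), chr11:69098914-69098943 (plus), chr4:151044852-151044881 (minus), chr4:151044805-151044834 (minus) and chr7:113207530-113207558 (plus), before the annotated start site except in Arntl, where the match begins 30 bases after it. For a window without a match, no more is known than that these letters are not in it.

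The libraries were deep enough for all 10 genes. An estimate from the steps of low FPKM values gave 31800000 to 42900000 fragments per library, if fragments had a mean length of 200 nt. Arntl, the member of lowest level, then rested on about 640 fragments in its shallowest library, a counting error of 4.0%. Mir96 was listed at 0 FPKM in all 8 libraries, which checks nothing, since a library of long polyadenylated RNA does not measure mature microRNAs. Dorsal horn markers were present in every library (11 of 11 with a mean of at least 1 FPKM, summed level 700 to 996 FPKM in wild type and 582 to 802 in knock-out), and motor neuron markers were low (summed 3.85 to 16.1 and 4.40 to 23.3 FPKM over 4 genes). Summed liver markers were 0.944 to 9.21 FPKM in wild type and 21.1 to 45.2 in knock-out over 4 genes. Wild type replicate 1 stood apart: the slope of all genes on transcript length, relative to the mean library, was -0.100 on the log2 scale per doubling of length there, against -0.015 to 0.042 in the other 7. Its summed blood markers (3 genes) were at 185 FPKM against 5.05 to 34.6 in the other 7, and its summed oligodendrocyte markers (4 genes) at 12170 against 7463 to 9166. Its summed markers of neurons, dorsal horn neurons, astrocytes and microglia were also the highest of 8. Those of oligodendrocyte precursors, motor neurons and meninges were the lowest of 8. That library was the lowest of 8 in Clock, Nr1d1 and Nr1d2 and the highest in Dbp, and values without it are given below. Knock-out replicate 1 was in turn the highest of 8 in Clock, Per1, Per2, Cry1, Cry2 and Nr1d2, and the lowest in Arntl. Its summed meningeal markers (4 genes) were at 87.0 FPKM against 39.2 to 65.4 in the other 7. The parts of these features in the values of the clock genes are given beside them where a measurement bears on it and were otherwise not tested. In RNA of a whole tissue, fewer cells of a type and less RNA per cell cannot be told apart.

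By mean FPKM over the 8 libraries, a level already divided by length, the members stood in the order Cry2 (45.9), Nr1d2 (44.5), Nr1d1 (35.0), Dbp (25.8), Per1 (24.8), Clock (16.6), Cry1 (16.4), Per3 (13.6), Per2 (12.5) and Arntl (5.48). Cry2 was above Nr1d2 in 5 of the 8 libraries, Dbp above Per1 in 4 and Clock above Cry1 in 5, so these neighbours were not set apart. Nr1d2 was above Nr1d1 in 8 of 8 libraries, Per1 above Clock in 8 of 8, and Nr1d1 above Dbp in 7 of 8. Cry1 was above Per3, and Per3 above Per2, in 6 of 8. Arntl was the single member whose range, 4.49 to 6.94 FPKM, did not touch that of its neighbour, Per2 with 9.31 to 18.1. The labelled level of Nr1d1 carries a doubt, because 8.5% of its exonic bases lie over exons of Thra on the opposite strand, and Thra was at a mean of 351 FPKM. Likewise 18.0% of the exonic bases of Dbp lie over Sphk2 (mean 16.2 FPKM), and 4.7% of those of Cry2 over a noncoding transcript on the opposite strand. The use of strand in the counting is not given in the sources used here, so reads from such stretches cannot be assigned.

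**Figure D1:**
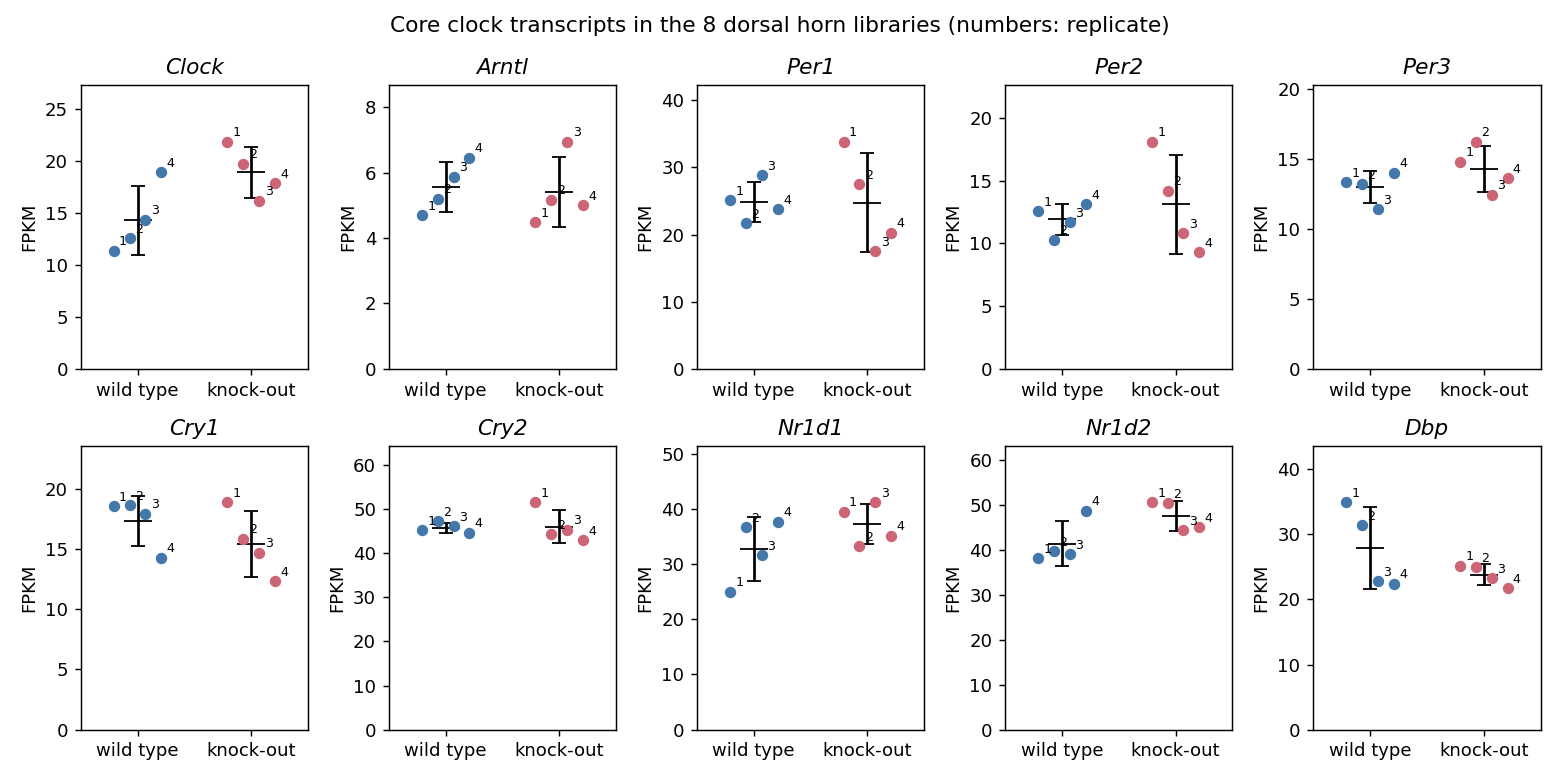
FPKM of each clock gene (vertical axes, from 0) in the 4 wild-type (blue) and 4 knock-out (red) libraries, numbered by replicate, with mean and SD in black. The groups overlap in each of the 10 panels; in the Clock panel wild type replicate 4, at 18.9 FPKM, stands among the knock-out libraries.

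Among the activators, Clock had the largest difference between the genotypes of the 10 genes with all libraries as deposited, but not with the length trend described below removed, when it was at 0.15 and Nr1d1 at 0.23. Clock (ENSMUSG00000029238, GRCm38 chromosome 5, 76209868 to 76304792, minus strand) measured 11.4, 12.6, 14.3 and 18.9 FPKM in replicates 1 to 4 of the wild type and 21.8, 19.8, 16.2 and 17.9 in knock-out replicates 1 to 4. Wild type replicates 1 to 3 lay below every knock-out library, and wild type replicate 4 lay above 2 of them. The means were 14.3 ± 3.32 FPKM (SD, n = 4) and 18.9 ± 2.44 (n = 4). The log2 fold change, knock-out minus wild type on the log2(FPKM + 1) scale, was 0.40 (SE 0.15), with a limma p of 0.0281 that became 0.62 when adjusted over all genes tested, and with p = 0.0857 in an exact permutation test, two-sided over 70 splits. In such a permutation test 0.0286 is the smallest p that 4 against 4 libraries allow. Without wild type replicate 1 the log2 fold change of Clock was 0.30 (SE 0.14).

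Arntl encodes BMAL1, the partner of CLOCK. Arntl (ENSMUSG00000055116, chromosome 7, 113207465 to 113314126, plus strand) was at 4.70, 5.20, 5.87 and 6.45 FPKM in the wild-type libraries and at 4.49, 5.17, 6.94 and 5.0 in the knock-out libraries. The lowest and the highest of its 8 values both came from knock-out mice. The means were 5.56 ± 0.765 and 5.40 ± 1.07 FPKM (SD, n = 4 each), which differed by -0.042 on the log2 scale (SE 0.14, adjusted p = 0.911 in limma).

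Of the Period genes, which encode the PER inhibitors, Per1 and Per2 were more spread among the knock-out libraries than among the wild-type ones, a difference in spread that was not tested. Per1 (chromosome 11, 69095217 to 69109960, plus strand), which also responds quickly to neuronal activity and stress hormones, was at 25.1, 21.7, 28.8 and 23.7 FPKM in wild type and at 33.8, 27.5, 17.5 and 20.3 in knock-out. Per2 (chromosome 1, 91415982 to 91459324, minus strand) was at 12.5, 10.3, 11.7 and 13.1 FPKM and at 18.1, 14.2, 10.8 and 9.31. In both genes knock-out replicates 1 and 2 were the higher knock-out libraries and replicates 3 and 4 the lower ones, and replicate 1 was the highest of all 8. Per1 means were 24.8 ± 3.00 and 24.8 ± 7.36 FPKM, and Per2 means 11.9 ± 1.23 and 13.1 ± 3.92 (SD, n = 4 each). Log2 fold changes were -0.041 (SE 0.19) for Per1 and 0.092 (SE 0.18) for Per2. Per3 (chromosome 4, 151003652 to 151044665, minus strand), the Period gene that is least needed for the rhythm, was at 13.3, 13.2, 11.4 and 14.0 FPKM in wild type and 14.8, 16.2, 12.4 and 13.6 in knock-out. The 2 highest values were from knock-out libraries and the lowest from wild type, and the log2 fold change was 0.12 (SE 0.11). The limma adjusted p was 0.935 for Per1, 0.839 for Per2 and 0.642 for Per3.

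Cryptochromes are the direct inhibitors of the CLOCK and BMAL1 pair. Cry1 (chromosome 10, 85131700 to 85185064, minus strand) was at 18.6, 18.6, 17.9 and 14.3 FPKM in wild type and at 18.9, 15.9, 14.7 and 12.3 in knock-out. Each group held 1 or more libraries near 14 and near 19 FPKM. The means were 17.3 ± 2.08 and 15.4 ± 2.73 FPKM (SD, n = 4 each), which differed by -0.17 on the log2 scale (SE 0.14, adjusted p = 0.635 in limma). Cry2 (chromosome 2, 92403646 to 92434043, minus strand) was at 45.2, 47.2, 46.1 and 44.6 FPKM and at 51.5, 44.3, 45.3 and 43.0. Apart from knock-out replicate 1 at 51.5 FPKM, its libraries lay between 43.0 and 47.2. Its log2 fold change was 0.0044 (SE 0.080, adjusted p = 0.987 in limma).

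Both REV-ERB genes had higher means in knock-out, with groups that overlapped. Nr1d1 (chromosome 11, 98767932 to 98775333, minus strand) was at 25.0, 36.7, 31.6 and 37.7 FPKM in wild type and at 39.5, 33.3, 41.1 and 35.1 in knock-out. Wild type replicate 1 was the lowest library, wild type replicate 3 also lay below every knock-out library, and wild type replicates 2 and 4 lay within the knock-out range. The log2 fold change was 0.19 (SE 0.13, adjusted p = 0.622 in limma), and without wild type replicate 1 it was 0.073. Thra, which overlaps it, was at 304 to 376 FPKM in knock-out and 342 to 384 in wild type. Nr1d2 (chromosome 14, 18204054 to 18239127, minus strand) was at 38.1, 39.7, 39.1 and 48.8 FPKM and at 50.6, 50.4, 44.4 and 45.1. As with Clock, 3 wild-type libraries lay below every knock-out library while wild type replicate 4 lay above 2 of them. Means of Nr1d2 were 41.4 ± 4.95 and 47.6 ± 3.32 FPKM (SD, n = 4 each), with a log2 fold change of 0.20 (SE 0.099; unadjusted limma p = 0.0691, adjusted p = 0.62; exact permutation p = 0.0857), and of 0.16 without wild type replicate 1.

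Dbp, the output gene whose transcript is known for one of the widest daily swings in mouse tissues, differed more among wild-type mice than among knock-out mice. Dbp (chromosome 7, 45705088 to 45710203, plus strand) was at 34.9, 31.4, 22.8 and 22.4 FPKM in wild type and at 25.2, 24.9, 23.3 and 21.7 in knock-out. Wild type replicates 1 and 2 lay above the other 6 libraries, which spanned 21.7 to 25.2 FPKM. The means were 27.9 ± 6.24 and 23.8 ± 1.62 FPKM (SD, n = 4 each), and the difference in spread was not tested. The log2 fold change was -0.20 (SE 0.14, adjusted p = 0.623 in limma), and -0.086 without wild type replicate 1.

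None of the 10 genes passed limma's adjusted p of 0.05 (0 of 10), nor did any of the 15061 genes tested (0.0%). At an unadjusted limma p under 0.05 there was 1 of 10, Clock, beside 831 of all genes tested (5.52%). By the exact permutation test, run for the members only, there were 0 of 10. Its p can fall under 0.05 only where the groups do not overlap. Groups that did not overlap were seen in 0 of 10, against 3.03% of all genes. Of the members 6 had a higher and 4 a lower mean in knock-out, with a median log2 fold change of 0.048 beside 0.014 over all genes. Without wild type replicate 4 the knock-out libraries lay above the wild-type ones in 2 of 10, Clock and Nr1d2, as they then did in 10% of all genes. With library weights estimated by limma, Clock (0.42, adjusted p = 0.0389), Nr1d2 (0.29, 0.0389) and Per3 (0.30, 0.0467) passed, 3 of 10, beside 1627 of all genes (10.8%). These weights gave 5.09 to wild type replicate 3 and 0.153 to wild type replicate 1.

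**Figure D2:**
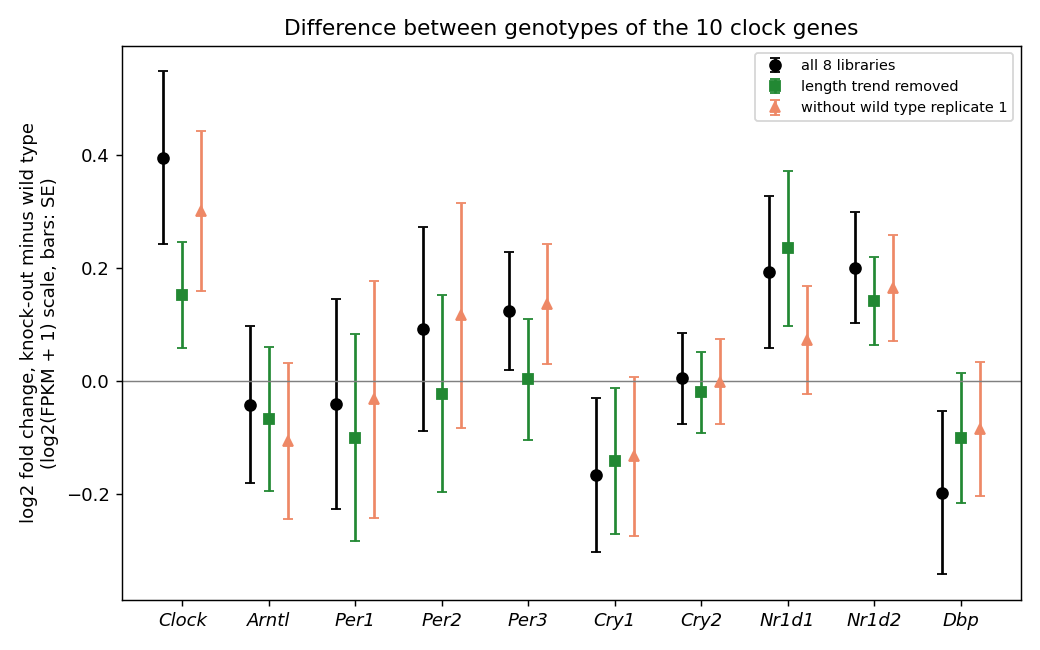
Log2 fold change of each clock gene, knock-out minus wild type (vertical axis, log2(FPKM + 1) scale, bars SE of limma), with all 8 libraries (black), after removal of each library's length trend (green) and without wild type replicate 1 (orange). Clock goes from 0.40 to 0.15 when the length trend is removed, and the signs of Per2 and Cry2 change.

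The level of Clock moved with the length slope of the libraries. Clock has the longest annotated transcript of the members, 9744 nt. Ordered by Clock, the libraries were wild type 1, 2 and 3, knock-out 3 and 4, wild type 4, and knock-out 2 and 1, and ordered by the slope they were the same except that wild type 4 stood last. The slopes in that order of Clock were -0.100, -0.015, -0.0061, 0.0010, 0.0093, 0.042, 0.030 and 0.039 on the log2 scale per doubling of length. The slopes of wild type replicates 1 to 3 lay below that of every knock-out library. Removing the trend can thus also take out part of a difference between genotypes, and length and genotype cannot be fully told apart here. Nr1d2, with a longest transcript of 4663 nt, gave the order of Clock except that wild type replicates 2 and 3 changed places. With the trend on length removed from each library, the log2 fold change was 0.15 for Clock (SE 0.094) and 0.14 for Nr1d2 (SE 0.078), with an adjusted p of 0.753 in limma for both. Removing the trend left 0 of 10 members at an unadjusted limma p under 0.05, beside 691 of 15023 genes tested. It moved Per3 from 0.12 to 0.0024 and Dbp, whose longest transcript is 1837 nt, from -0.20 to -0.10, while Nr1d1 was at 0.23.

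**Figure D3:**
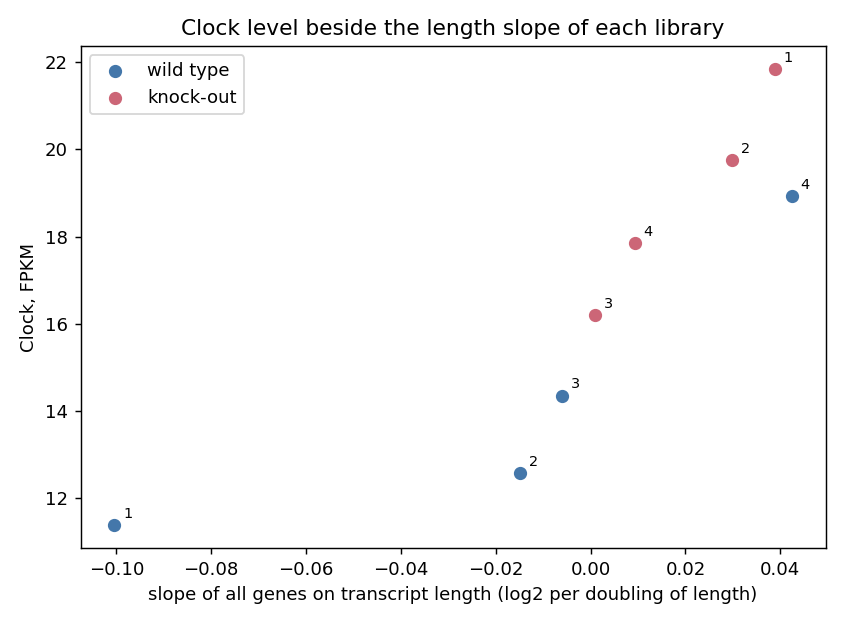
Clock in FPKM (vertical axis) against the slope of all tested genes on transcript length in each library (horizontal axis, log2 per doubling of length, relative to the mean library), 4 wild-type (blue) and 4 knock-out (red) libraries numbered by replicate. Wild type replicate 1 has the lowest slope, -0.100, and the lowest Clock, 11.4 FPKM.

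The 3 members with a match to miR-96 in the 3′ UTR, printed above, had log2 fold changes of 0.40 (Clock), 0.20 (Nr1d2) and 0.092 (Per2). The 7 without a match ran from -0.20 (Dbp) to 0.19 (Nr1d1). With the length trend removed the 3 were at 0.15, 0.14 and -0.022, and the 7 ran from -0.14 (Cry1) to 0.23 (Nr1d1), so that 1 gene without a match then exceeded all with one. These are values of single genes, with no test of the grouping.

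Within a genotype the clock genes were spread about as widely as other genes. The median SD within genotype on the log2(FPKM + 1) scale was 0.21 over the 10, against 0.185 over all genes tested, and the highest library was a median 1.58 times the lowest, for the members and for all genes alike. Per1 (SD 0.31, above 83.6% of all genes) and Per2 (0.30, above 81.0%) were the most spread. Clock was at 0.25, Dbp at 0.23, Nr1d1 and Cry1 at 0.21 each, and Arntl at 0.20, above 56.0% of genes. Per3 (0.14), Nr1d2 (0.13) and Cry2 (0.083, above 6.3%) were less spread than the median gene. From the lowest to the highest of all 8 libraries the members spanned 1.20 times (Cry2) to 1.95 times (Per2), with Per1 at 1.93, Clock at 1.92, Dbp at 1.61 and Arntl at 1.55 times.

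**Figure D4:**
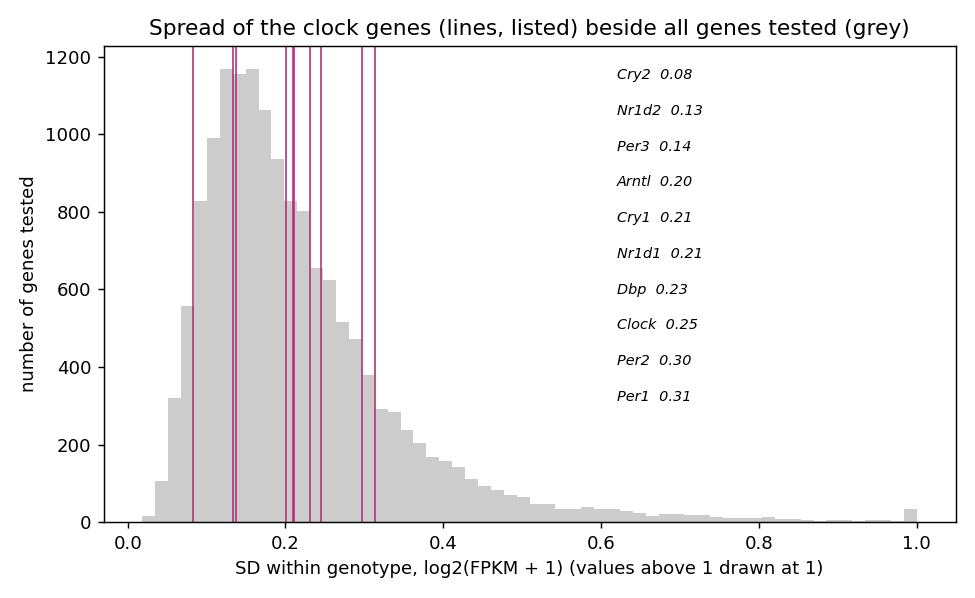
Number of tested genes (vertical axis) by SD within genotype on the log2(FPKM + 1) scale (horizontal axis, values above 1 drawn at 1) in grey, with a line for each of the 10 clock genes, whose SDs are listed. The members run from 0.08 for Cry2 to 0.31 for Per1.

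Whether members varied together was asked for all 45 pairs over the 8 libraries. Clock and Nr1d2 had a Pearson r of 0.96 (exact permutation p = 0.000174, adjusted over the 45 pairs p = 0.00781) and a Spearman rho of 0.98 (exact permutation p = 0.000397, adjusted p = 0.0179). Without the 2 libraries farthest from the median of Clock r was 0.96, and within genotype, on deviations from the group means, 0.93. With the length trend removed r was 0.91, with an adjusted permutation p of 0.0949. The adjusted permutation p also exceeded 0.05 in 5 of 8 runs that left out 1 library (wild type replicate 1 or 4, or knock-out replicate 1, 2 or 4), from 0.0625 to 0.152, with 7 libraries in each. The 3 libraries low in both genes were wild type replicates 1 to 3, too few to test the relation among them. Per1 and Per2 followed with an r of 0.82 (exact permutation p = 0.0132, adjusted p = 0.298) and a rho of 0.76 (exact permutation p = 0.0368, adjusted p = 0.276). Their r was 0.74 without the 2 libraries farthest in Per1, 0.67 without knock-out replicate 1 and 0.82 with the length trend removed. Of the 45 pairs 1 passed the adjusted threshold and 4 had an unadjusted permutation p of r under 0.05. The share among pairs of other genes was not computed, so these counts are not set apart from those of other genes.

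**Figure D5:**
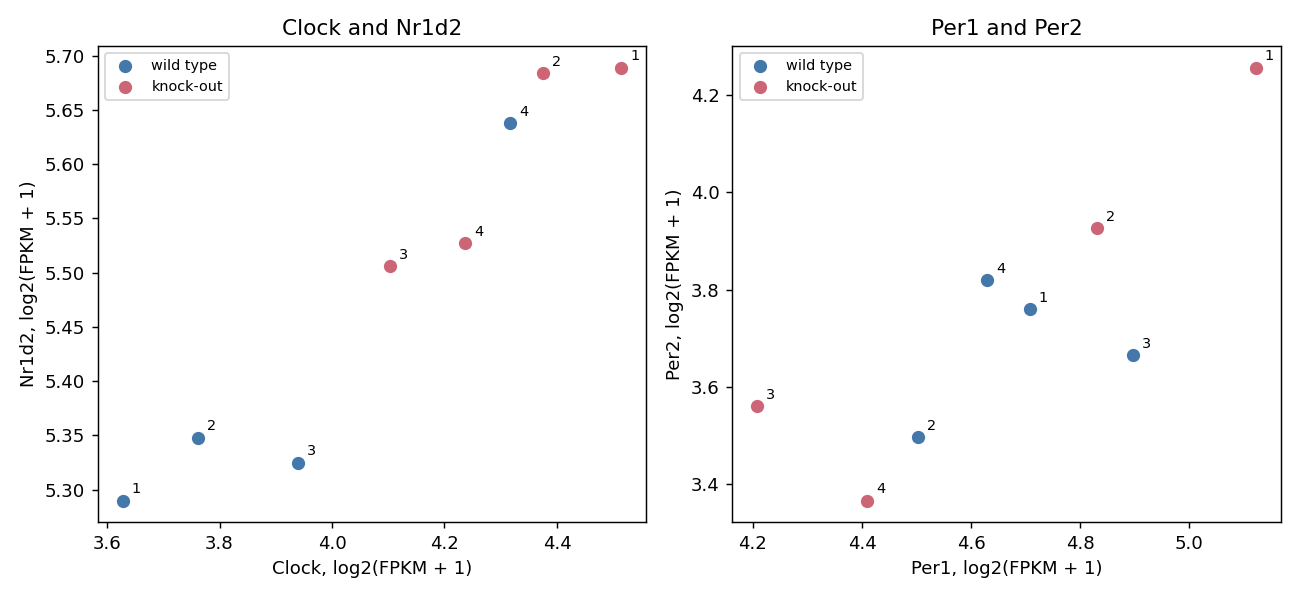
Levels on the log2(FPKM + 1) scale of Clock against Nr1d2 (left) and Per1 against Per2 (right) in the 4 wild-type (blue) and 4 knock-out (red) libraries, numbered by replicate. Wild type replicates 1 to 3 are low in both genes of the left panel, and knock-out replicate 1 is highest in both genes of the right panel.

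The pairs that oppose each other over the day in many tissues were not set apart from zero. Arntl and Dbp had an r of -0.49 (exact permutation p = 0.205, adjusted p = 0.486; rho -0.43), Arntl and Per1 an r of -0.56 (exact permutation p = 0.154, adjusted p = 0.434; rho -0.50), and Arntl and Nr1d1 an r of 0.42 (exact permutation p = 0.311, adjusted p = 0.602; rho 0.33). With the length trend removed, r of these pairs was -0.52, -0.64 and 0.22 in the same order. As a measure of phase, log2(FPKM + 1) of Arntl minus that of Dbp was -2.65, -2.38, -1.79 and -1.65 in wild type and -2.25, -2.07, -1.61 and -1.92 in knock-out. The wild-type libraries covered the knock-out range but for replicate 3 of the knock-out, at -1.61. The values rose with the length slope among the wild-type libraries and fell with it among the knock-out libraries. No measure of phase was computed with the length trend removed. The group means were -2.12 ± 0.48 and -1.96 ± 0.27 (SD, n = 4 each), a difference of 0.16. Arntl minus Nr1d1 differed by -0.24 (-2.35 ± 0.18 and -2.59 ± 0.21). The mean of Arntl and Npas2, the activator that can replace Clock, minus the mean of Dbp, both REV-ERB genes and the 3 Period genes differed by 0.03. The 3 measures thus gave differences of both signs. The last had group means of -1.86 ± 0.25 and -1.82 ± 0.35. It was lowest in knock-out replicate 1 (-2.24) and highest in knock-out replicate 3 (-1.42).

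Of 26 other clock genes, among them the ROR activators, the PAR-domain factors related to Dbp, and enzymes that act on PER and CRY proteins, all were tested, 16 had a higher and 10 a lower mean in knock-out, and 0 passed limma's adjusted threshold. Their median log2 fold change was 0.036 and 0 had groups that did not overlap, beside 3.03% of all genes tested. Of all genes tested 53.1% had a higher mean in knock-out. At an unadjusted limma p under 0.05 were 2 of 26, beside 5.52% of all genes tested. They were Arntl2, a relative of Arntl (7.28 and 8.67 FPKM in wild type and knock-out, log2 fold change 0.23, SE 0.097), and Rora, which activates Arntl (17.9 and 22.9 FPKM, 0.33, SE 0.15). The kinase gene Gsk3b was at 0.25 (SE 0.15). The limma adjusted p was 0.62 for each of these 3.

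Per1, Per2 and several clock outputs also answer to stress hormones, temperature and neuronal activity, so lists of genes known for these were read beside them. Of 10 glucocorticoid-responsive genes 5 had a higher and 5 a lower mean in knock-out, and of 8 temperature-responsive genes 5 and 3, with 0 genes at an unadjusted limma p under 0.05 in either list. Their median log2 fold changes were 0.0078 and 0.057. Of lowest p in the first list were Zbtb16 (0.95, SE 0.43), Plin4 (0.47, SE 0.36), the metallothionein gene Mt1 (-0.27, SE 0.21) and the kinase gene Sgk1 (-0.45, SE 0.36). In the second they were the chaperone genes Hsp90aa1 (0.42, SE 0.22) and Hsph1 (0.26, SE 0.16) and the cold-inducible RNA-binding protein genes Rbm3 (-0.18, SE 0.12) and Cirbp (-0.22, SE 0.20). Of 8 immediate early genes 7 had a lower mean in knock-out, beside 46.9% of all genes tested, with a median of -0.15 and 0 past the adjusted threshold. There, 2 of 8 had an unadjusted limma p under 0.05, beside 5.52% of all genes, Ier2 (5.08 and 3.43 FPKM, -0.45, SE 0.15) and Junb (-0.26, SE 0.12), followed by Dusp1 (-0.37, SE 0.17) and Nr4a1 (-0.15, SE 0.22). Junb was the 1 gene of the 3 lists whose groups did not overlap, which 3.03% of all genes did not.

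Knock-out replicates 1 and 2, the knock-out libraries higher in Per1 and Per2, also lay above replicates 3 and 4 in 7 of 8 immediate early genes, Junb being the exception. The same held in 2 of 10 glucocorticoid-responsive and 1 of 8 temperature-responsive genes, beside 17.8% of all genes tested. This order was looked for after the Period values were seen. Sgk1 was at 128, 115, 187 and 92.3 FPKM in wild type and at 158, 136, 48.4 and 69.5 in knock-out. Zbtb16, of the same list, ran 20.7, 8.27, 8.11 and 18.1 FPKM over the knock-out libraries, with replicate 4 above replicate 2. Fos, an immediate early gene chosen after its values were seen, was at 19.7, 28.3, 47.3 and 27.4 FPKM and at 46.5, 27.7, 24.2 and 15.9. Hspa1b, a heat shock gene chosen in the same way, was highest in knock-out replicate 1, at 32.0 FPKM against 2.34 to 14.0 in the other 7, while knock-out replicate 2, at 4.98, lay below replicates 3 and 4. The part of handling or activity in the Period values was not tested.

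By Pearson r of log2(FPKM + 1), the genes most like Arntl, apart from those left out below, were Tek (0.93), Zfat (0.93), Slc2a12 (0.92), Thoc5 (0.92) and Simc1 (0.92). Those most like Dbp were Arhgap27 (0.97), Ppih (0.96), Lefty1 (0.95), Plscr3 (0.95) and Cd86 (0.95). With the length trend removed the values for Arntl were 0.77 to 0.93 and those for Dbp 0.77 to 0.93. Each list is the top of the 15061 tested genes over 8 libraries, with members, genes without a symbol, predicted models and pseudogenes left out. Neither list held a gene of the 26 other clock genes.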

How the data were processed

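Libraries were made from polyadenylated RNA of 8 mice with a NEBNext Ultra kit, per the labels' protocols. HISAT2, SAMtools and Cufflinks are listed in the submitters' processing notes, with no version or options. The authors deposited FPKM per gene, per the file headers, so counts are already divided by length and by mapped fragments. The notes list the build mm8, but the locus in the files equalled GENCODE M21 (GRCm38) for 45128 of 49326 genes with a symbol (91.5%), and coordinates are on GRCm38, counted from 1.

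Genotypes were compared with limma 3.58.1 in R 4.3.3 on log2(FPKM + 1), a scale that understates changes of low genes, with two-sided tests from lmFit and eBayes (robust, with a mean-variance trend). Genes with a mean of at least 1 FPKM were tested, with Benjamini-Hochberg adjustment over all of them and a threshold of 0.05. The script was tested on simulated data. Single values had exact permutation tests (SciPy 1.17.1). No count model was fitted. Depth was estimated from single-transcript genes of at least 3000 nt, where 98.0% to 98.7% of low values lay within 0.15 of a whole fragment. The length trend was a loess of each library's deviations from the gene mean on log2 of the longest transcript.

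Alternatives were a pseudocount of 0.1, no filter, a mean of at least 5 FPKM, median-ratio scaling, quantile normalization, limma without trend, library weights, a replicate block, removal of the length trend, and leaving out each library. Members and lists were chosen with earlier results of these data known. Named genes were the 10 members, the 4 of lowest p in each other list, and the 5 most like Arntl and Dbp; predicted models and pseudogenes were left out there, and 1 named gene is not reported here.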

Additional observations from a re-analysis of the deposited data

Results flagged for a closer look

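In 52 groups of 4 libraries (26 genes, 2 genotypes), 3 held a library set apart from the others by more than 0.829 of the group's range (Dixon's 95% critical value), where chance gives about 1 in 20 groups. Cry1 was at 14.3 FPKM in wild type replicate 4, where the remaining 3 libraries ran from 17.9 to 18.6. Nr1d2 was at 48.8 FPKM in the same library, against 38.1 to 39.7. The chaperone gene Hsph1 was at 231 FPKM in knock-out replicate 1, against 181 to 185.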

How the results depend on the processing

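With library weights 1627 genes and 3 of the 10 clock genes passed the threshold, against 0 and 0 otherwise, apart from 1 gene, Hpx, without knock-out replicate 2. Leaving out each library gave 0 to 1 genes, 0 clock genes each time, and 0 to 2 clock genes whose groups did not overlap. The 2 were Clock and Nr1d2 without wild type replicate 4, both higher in knock-out. The share of all genes in that run, given above, counts only genes higher in knock-out. No such share was computed with another library left out, so the 2 are not set apart from other genes. Cry2 changed sign with median-ratio scaling (-0.014), library weights (-0.010) and the length trend removed (-0.020), and Per2 with the latter (-0.022). Over the 8 libraries left out in turn, the log2 fold change was -0.050 to 0.036 for Cry2, -0.20 to 0.10 for Per1, -0.15 to 0.027 for Arntl, -0.068 to 0.23 for Per2 and -0.31 to 0.028 for Nr4a1. It was 0.30 to 0.53 for Clock and 0.16 to 0.28 for Nr1d2. The r of Clock and Nr1d2 ran from 0.95 to 0.98, with an adjusted permutation p above 0.05 in 5 of the 8. At most 1 of 10 members had a limma p under 0.05 in any setting but library weights (3) and without wild type replicate 4 (2). Of the 15061 genes tested, 5014 had such a p with library weights and 3151 without wild type replicate 4. With the replicate number as a block 0 genes passed, 0 of them clock genes, and Clock had a limma p of 0.0505. The numbers share no stated source: same-numbered libraries deviated together with r of -0.108 to 0.144 over genes. No wild-type library correlated best with the knock-out library of its own number. Of the knock-out libraries, only replicate 4 correlated best with the wild-type library of its own number. Causes were not tested, except that fewer libraries enter when one is left out. At these depths counting error was 4.0% or less for each member. With 1 library a mouse, spread between mice and between library preparations cannot be told apart.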
